A study of Cucumis sativus with 6 samples.

Results

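The genes described here fell stepwise across the phloem of 3 cucumber organs, with their highest scores in pedicle, lower scores in stalk and their lowest in fruit. They numbered 111 of the 15720 genes in the table, or 0.706%. A gene was taken when its mean pedicle score plus 5 was more than 2 times its mean stalk score plus 5, and that value in turn more than 2 times its mean fruit score plus 5. In addition, both pedicle libraries had to exceed both stalk libraries, both stalk libraries had to exceed both fruit libraries, and the mean pedicle score had to reach 50. On its own, the order of the libraries without overlap was met by 4.91% of all genes. Scores are in TPTM, which is taken to mean a gene's part of 10000000 in a library.

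Phloem had been cut out by laser microdissection, which isolates chosen cells from thin tissue sections. The pedicle is the small stem that carries a flower and later its fruit. The 6 libraries comprised 2 each of pedicle phloem, stalk phloem and fruit phloem. All came from young fruits of the inbred line 9930 and their pedicles, 3 days after anthesis (flower opening), and no treatment or genetic change is recorded in the labels. Where the pedicle ends and the stalk begins is not stated in the labels, so the order pedicle, stalk, fruit is that of the rule and of the scores. They call the replicates biological without naming the plants behind them, so the spread between replicates may hold plant and technical parts alike.

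Phloem carries sugars, amino acids and signalling molecules from leaves to growing organs through sieve tubes, which are kept alive by their companion cells. In cucurbits such as cucumber it is also known for abundant structural phloem proteins that can plug injured sieve tubes, and for sieve tubes that lie outside the vascular bundles. Along the path from the stem into a young fruit the tissue passes from long-distance transport to unloading into growing cells.

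None of the 111 identifiers, and 0 of all 15720, matched the RefSeq table of 23999 cucumber genes (assembly Cucumber_9930_V3) used for names. Genes are therefore given by identifier, and no product or role is stated for them. For the same reason the phloem label was not checked against marker genes, and no sequences are shown. The scores carry no recorded correction for gene length, so a high score of one gene against another is not a measure of transcript number. In dissected tissue of this kind, fewer cells of a type and less RNA per cell cannot be told apart.

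Because the rule used all 6 libraries and all 3 pairs of organs, the direction of the fall in these genes is a property of their choice. The levels, the size of each step and the spread between libraries are given as descriptions, without tests.

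Together the 111 genes held a larger part of the pedicle libraries than of the stalk libraries, and the smallest part of the fruit libraries. They made up 2.04% and 2.07% of the total score of the pedicle libraries, 0.590% and 0.572% in stalk, and 0.150% and 0.251% in fruit. By organ this was 2.05% ± 0.021 in pedicle, 0.581% ± 0.013 in stalk and 0.201% ± 0.071 in fruit (SD, n = 2 each). Replicates lay close together in pedicle and stalk, and further apart in fruit.

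A single gene, Csa5G197120, made up much of these sums. Its scores were 70949 and 64385 TPTM in pedicle, 19590 and 19057 TPTM in stalk, and 2945 and 12801 TPTM in fruit. The organs did not overlap, but the fruit libraries differed more than 4-fold, and the gene took 19.6% and 51.1% of the group's total in them. Without it the group's share was 1.38% ± 0.068 in pedicle, 0.388% ± 0.0089 in stalk and 0.122% ± 0.0013 in fruit (SD, n = 2 each). The distance between the fruit libraries thus lay in this gene, while the others summed to 0.121% and 0.123% of the fruit libraries.

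**Figure D1:**
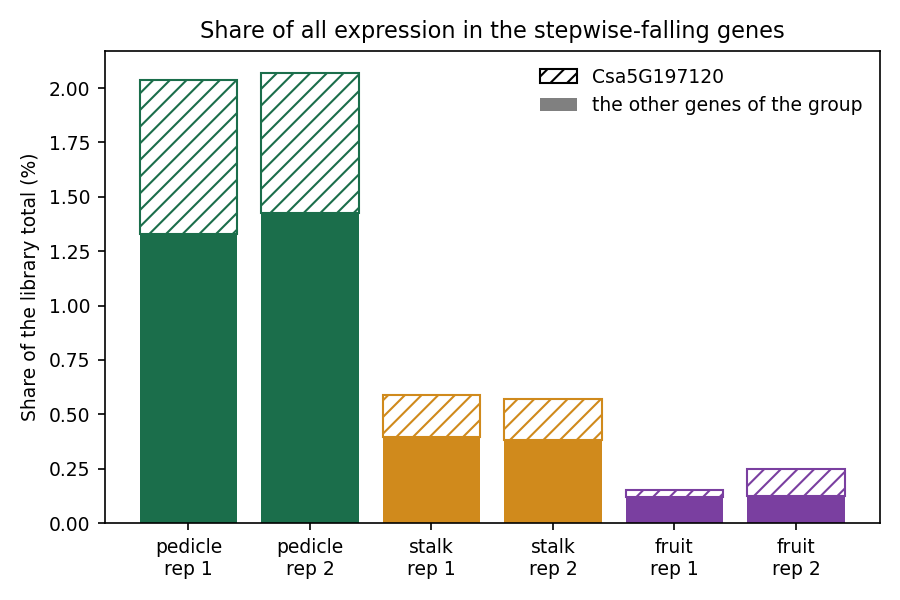
Share of each library's total score (%, linear axis from 0) held by the 111 stepwise-falling genes, per library, with the part of Csa5G197120 hatched and the other genes solid. Pedicle bars reach 2.04% and 2.07%, stalk bars 0.590% and 0.572%, and fruit bars 0.150% and 0.251%.

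Levels within the group covered a wide range. Mean pedicle scores ran from 54.5 to 67667 TPTM with a median of 408.5, mean stalk scores from 6 to 19323.5 TPTM with a median of 70.5, and mean fruit scores from 0 to 7873 TPTM with a median of 16.5. In pedicle 17 genes were under 100 TPTM, 55 between 100 and 1000 TPTM, and 39 at 1000 TPTM or more. At least 1000 TPTM were also reached by 13 of the genes in stalk and by 4 in fruit.

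The 4 genes still at 1000 TPTM or more in fruit, picked out after their values were seen, were Csa5G197120, Csa5G514500, Csa6G176940 and Csa6G521030. Csa5G514500, which had the second highest pedicle score of the group, had 9275 and 12139 TPTM in pedicle, 4325 and 3239 TPTM in stalk, and 1243 and 1353 TPTM in fruit. Its steps were nearly equal, with ratios of organ means plus 5 of 2.83 between pedicle and stalk and 2.91 between stalk and fruit. Csa6G176940 had 5915 and 5300 TPTM in pedicle, 2281 and 2993 TPTM in stalk, and 1303 and 1012 TPTM in fruit. Csa6G521030 had 5984 and 6373 TPTM in pedicle, 2635 and 2880 TPTM in stalk, and 1255 and 905 TPTM in fruit. These genes kept a substantial score in every organ, and in the last 3 the replicates of an organ lay close to each other compared with the distance between organs.

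At the other end, 37 of the genes had a mean fruit score under 10 TPTM, and 6 were listed at 0 in both fruit libraries. Those 6 had mean scores of 54.5 to 142 TPTM in pedicle and 6 to 42 TPTM in stalk. In 17 genes the mean fruit score was under 1% of the mean pedicle score. Over the whole group the mean stalk score was 28.6% of the mean pedicle score at the median gene, ranging from 0.872% to 49.4%. The mean fruit score was 6.81% of the mean pedicle score at the median gene, with a highest value of 22.7%.

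Pedicle-stalk and stalk-fruit steps were of like size at the median gene, but they varied among genes. As log2 ratios of organ means plus 5, the pedicle-stalk step ran from 1.01 to 6.52 with a median of 1.67, and the stalk-fruit step from 1.00 to 7.54 with a median of 1.55. The medians over all 15381 tested genes were -0.04 and -0.13. A pedicle-stalk step of at least 4-fold was found in 40 genes and a stalk-fruit step of at least 4-fold in 24. Steps of at least 10-fold numbered 13 between pedicle and stalk and 2 between stalk and fruit. The added 5 TPTM caps the stalk-fruit ratio of genes with low stalk scores, so these counts are not on one scale for both steps. Both steps together came to a median of 3.50 on the log2 scale, and 62 genes fell by at least 10-fold from pedicle to fruit. The median over all tested genes for pedicle against fruit was -0.19.

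The first step was the larger one in 67 genes and the second in 44. On the log2 scale the pedicle-stalk step was at least 2 times the stalk-fruit step in 19 genes, the reverse held in 7, and 85 genes lay in between. The share of the fall that lay between pedicle and stalk was 53.9% at the median gene and ranged from 14.4% to 84.6%. Among the 39 genes of at least 1000 TPTM in pedicle, the first step was larger in 28, with median step ratios of 3.78 and 2.84. Among the 55 genes between 100 and 1000 TPTM it was larger in 27, with median ratios of 3.10 and 3.19. Among the 17 genes under 100 TPTM it was larger in 12, with median ratios of 3.00 and 2.37. The added 5 TPTM limits the stalk-fruit step of low genes, so the classes are not on one scale for that step. It also bears on which step is the larger. With 1 TPTM added in its place, the group's median stalk-fruit step (1.84) was above its median pedicle-stalk step (1.78).

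**Figure D2:**
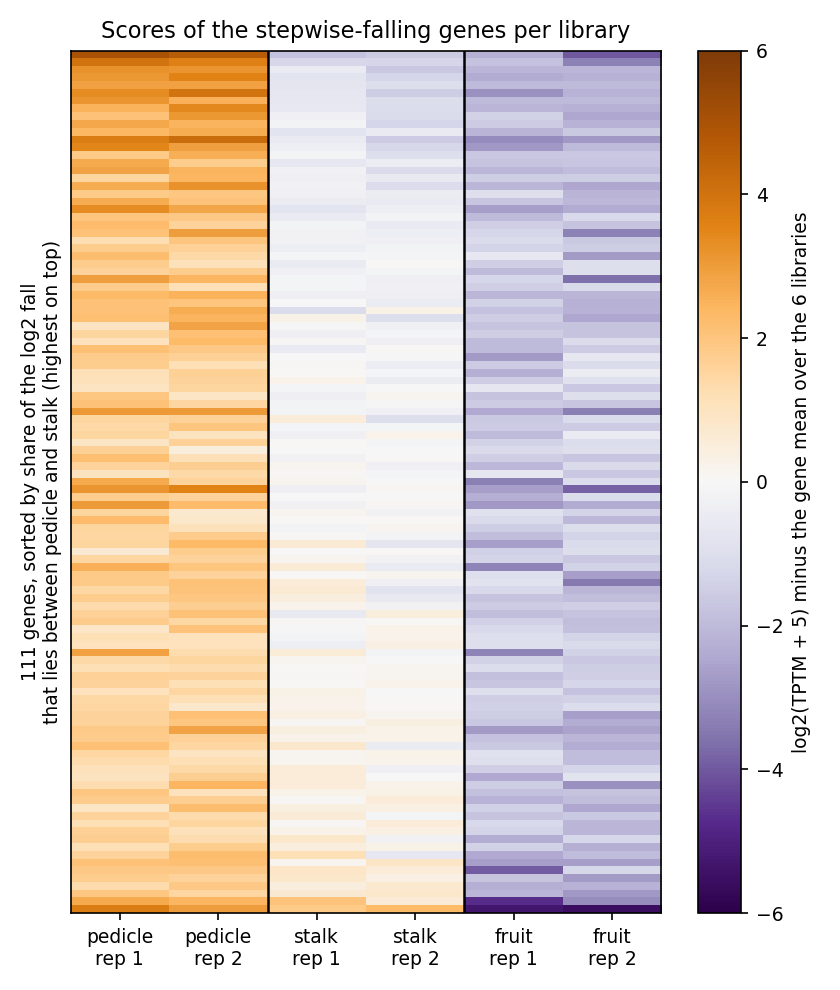
Score of each of the 111 genes (rows) in the 6 libraries (columns), as log2(TPTM + 5) minus the gene's mean over the 6 libraries, with genes sorted by the share of the fall that lies between pedicle and stalk. In rows at the top up to 84.6% of the log2 fall lies between pedicle and stalk, and in rows at the bottom, down to 14.4%, most of it lies between stalk and fruit.

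The genes with the most unequal steps had very low scores in fruit, or in stalk and fruit alike. Csa6G476020 had 2529 and 2058 TPTM in pedicle, 18 and 22 TPTM in stalk, and 12 and 0 TPTM in fruit. Its log2 difference was 6.52 ± 0.53 between pedicle and stalk and 1.44 ± 0.53 between stalk and fruit (SE from limma over all 6 libraries, on log2(TPTM + 5)), so its second step was small and rested on scores of 22 TPTM or less. Without fruit replicate 2 the gene no longer met the rule. The limma differences compare means of log2 scores, so they can depart from the steps, which are log2 ratios of organ means (1.18 for its second step). Csa5G615820 took the same course, with 1486 and 1162 TPTM in pedicle, 35 and 34 TPTM in stalk, and 22 and 5 TPTM in fruit. Its log2 differences were 5.06 ± 0.47 and 1.26 ± 0.47 (SE, limma), and it too failed the rule without fruit replicate 2. For these genes the pedicle stood far apart, and the order of stalk and fruit depended on a few TPTM.

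Csa6G367090 had its small step first and its large step between stalk and fruit. It had 5605 and 3328 TPTM in pedicle, 1532 and 2170 TPTM in stalk, and 6 and 4 TPTM in fruit. Its log2 difference was 1.24 ± 0.32 between pedicle and stalk and 7.52 ± 0.32 between stalk and fruit (SE, limma). It had the largest ratio of pedicle to fruit in the group, followed by Csa6G476020, but without pedicle replicate 1 its first step was too small for the rule. Csa4G285760 had 823 and 688 TPTM in pedicle, 520 and 190 TPTM in stalk, and 0 and 11 TPTM in fruit. Its log2 differences were 1.24 ± 0.58 and 5.16 ± 0.58 (SE, limma). One stalk library was close to pedicle and the other far below it, and the gene failed the rule without pedicle replicate 1 and without stalk replicate 2.

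**Figure D3:**
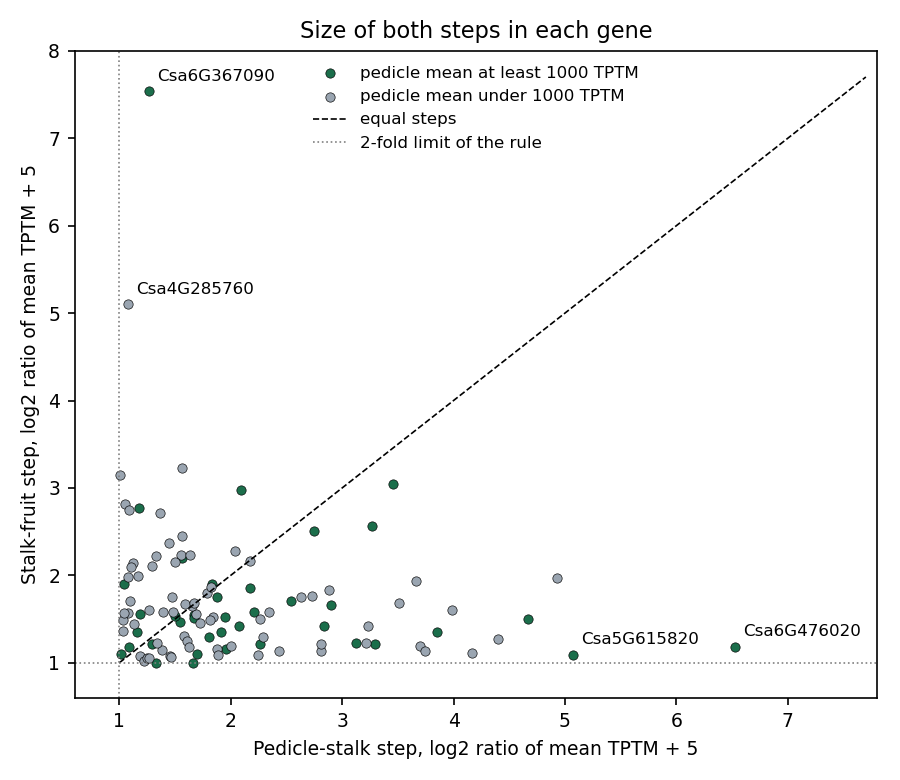
Pedicle-stalk step against stalk-fruit step, each a log2 ratio of mean TPTM + 5, for the 111 genes, with green points for a pedicle mean of at least 1000 TPTM and grey points for lower ones. Most genes lie between 1 and 3 on both axes near the dashed line of equal steps, and Csa6G476020 (6.52, 1.18) and Csa6G367090 (1.27, 7.54) lie furthest from it. Both axes use the stalk libraries.

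The 2 genes with the most even steps were of modest level, but steps were also nearly equal in Csa5G514500, a gene of high level. Csa2G235100 had 108 and 89 TPTM in pedicle, 27 and 29 TPTM in stalk, and 11 and 0 TPTM in fruit, with step ratios of 3.14 and 3.14. Csa6G490090 had 171 and 259 TPTM in pedicle, 96 and 32 TPTM in stalk, and 23 and 10 TPTM in fruit, with step ratios of 3.19 and 3.21. Their evenness rests on means of libraries that lay far apart in stalk or fruit, and Csa6G490090 failed the rule without stalk replicate 1.

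In these genes replicates differed most in fruit, where their scores were lowest (median 16.5 TPTM, with 37 genes under 10 TPTM). The rule's bar on overlap also limits the spread that members can show. The root mean square standard deviation between replicates on the log2 scale was 0.45 in pedicle, 0.42 in stalk and 0.68 in fruit for the 111 genes, beside 0.57, 0.31 and 0.47 for all tested genes. Replicates were more than 2-fold apart in 12 of the genes in pedicle, 14 in stalk and 28 in fruit (scores plus 5), and in 65 genes they stayed within 2-fold in every organ. Neither replicate was the higher one throughout. Pedicle replicate 1 was higher in 57 genes and replicate 2 in 54, and fruit replicate 1 was higher in 52 and replicate 2 in 50. In stalk, replicate 1 was higher in 65 and replicate 2 in 42.

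The genes with the largest spread were Csa1G024910 and Csa3G595190. Csa1G024910 had 194 and 227 TPTM in pedicle, 74 and 41 TPTM in stalk, and 26 and 0 TPTM in fruit. Csa3G595190 had 1846 and 1814 TPTM in pedicle, 910 and 707 TPTM in stalk, and 27 and 202 TPTM in fruit. In both genes the spread lay mainly in fruit, and both met the rule with any single library left out.

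A stricter reading compares the nearest libraries of neighbouring organs. The lower pedicle library was more than 2-fold above the higher stalk library in 68 genes, and the lower stalk library more than 2-fold above the higher fruit library in 57 (scores plus 5). Both held in 32 genes, of which 17 had at least 1000 TPTM in pedicle, 14 had 100 to 1000 TPTM and 1 had less. The rule was met with any single library left out in 46 genes. Csa5G514500 belonged to both of these subsets, and Csa5G197120, Csa6G367090 and Csa6G476020 to neither.

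Several members carried neighbouring identifiers. Identifiers of this form number the loci along a chromosome, with the digit before the G naming the chromosome, and coordinates were not used here. In 6 cases 2 members followed each other in the identifier order of the table, which involved 11 of the 111 genes, and 5 of the 6 pairs were numbered 10 apart. With 1 library left out, 4 of the 11 no longer met the rule, and 3 of the 6 pairs held at least 1 of these. The 4 were Csa2G299950 (without fruit replicate 1), Csa2G300950 (without pedicle replicate 1, stalk replicate 2 or fruit replicate 1), Csa3G731090 (without fruit replicate 2) and Csa5G190550 (without stalk replicate 2). Of the 222 rows next to a member, 12 were members (5.41%), where members made up 0.706% of the table. Of the 210 genes next to members that were not members themselves, 19 (9.05%) also had their libraries in the order pedicle, stalk, fruit without overlap, which held for 4.23% of all genes outside the group. Neighbouring genes are often similar copies, and how reads shared between copies were counted is not given in the sources used here, so values within a pair may not be independent.

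Csa4G002510 and Csa4G002520 were the most alike of these pairs. Csa4G002510 had 1993 and 1922 TPTM in pedicle, 203 and 195 TPTM in stalk, and 40 and 19 TPTM in fruit. Csa4G002520 had 2440 and 3262 TPTM in pedicle, 220 and 289 TPTM in stalk, and 39 and 14 TPTM in fruit. The pedicle-stalk ratio was 9.62 in Csa4G002510 and 11.0 in Csa4G002520, and the stalk-fruit ratio 5.91 and 8.24. The genes on either side did not follow. Csa4G002500 had 16 and 30 TPTM in pedicle, 116 and 129 TPTM in stalk, and 217 and 88 TPTM in fruit, and Csa4G002530 stayed between 1119 and 1381 TPTM in all libraries.

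Csa3G731070, Csa3G731080 and Csa3G731090 formed a run of 3. Csa3G731080 had 7938 and 4829 TPTM in pedicle, 862 and 1028 TPTM in stalk, and 136 and 188 TPTM in fruit. Csa3G731070 had 1502 and 1359 TPTM in pedicle, 337 and 390 TPTM in stalk, and 169 and 150 TPTM in fruit. Csa3G731090 was low, with 60 and 104 TPTM in pedicle, 19 and 18 TPTM in stalk, and 8 and 4 TPTM in fruit. The 3 differed widely in score, with step ratios of 6.73 and 5.69 in Csa3G731080, 3.90 and 2.24 in Csa3G731070, and 3.70 and 2.14 in Csa3G731090. Another member, Csa3G730980, had 140 and 131 TPTM in pedicle, 38 and 55 TPTM in stalk, and 4 and 6 TPTM in fruit, and lay 9 table rows before the run. Of the 8 genes in between, 6 did not have the libraries in the order pedicle, stalk, fruit without overlap, nor did Csa3G731100 just after the run, with 30 and 44 TPTM in pedicle, 80 and 54 TPTM in stalk, and 49 and 79 TPTM in fruit.

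On the identifiers starting with Csa1G, Csa1G527870 and Csa1G527880 were members, and the 2 genes numbered just before them had the same order of libraries. Csa1G527870 had 4930 and 3135 TPTM in pedicle, 569 and 551 TPTM in stalk, and 230 and 181 TPTM in fruit. Csa1G527880 had 2690 and 2294 TPTM in pedicle, 1157 and 1030 TPTM in stalk, and 357 and 379 TPTM in fruit. Csa1G527860, with 1847 and 1614 TPTM in pedicle, 1342 and 988 TPTM in stalk, and 500 and 367 TPTM in fruit, missed the 2-fold limit at its first step. Csa1G527850 had 41 and 31 TPTM in pedicle, 21 and 14 TPTM in stalk, and 6 and 1 TPTM in fruit, and missed both the pedicle minimum and the 2-fold limit at its first step (ratio 1.82). These last 2 genes thus had the members' order without overlap between organs but did not meet their limits, and Csa1G527890, just after the members, did not have the order.

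Csa5G190550 and Csa5G190560 were the pair among identifiers starting with Csa5G. Csa5G190560 had 1423 and 646 TPTM in pedicle, 239 and 212 TPTM in stalk, and 17 and 100 TPTM in fruit. Csa5G190550 had 176 and 153 TPTM in pedicle, 89 and 52 TPTM in stalk, and 13 and 15 TPTM in fruit. Csa5G190500, also a member, had 272 and 183 TPTM in pedicle, 65 and 28 TPTM in stalk, and 0 and 13 TPTM in fruit, and lay 3 table rows before the pair. The last pair, Csa2G299950 and Csa2G300950, stood next to each other in the table but was numbered 1000 apart. Csa2G299950 had 2579 and 3076 TPTM in pedicle, 284 and 355 TPTM in stalk, and 107 and 160 TPTM in fruit, and Csa2G300950 had 130 and 54 TPTM in pedicle, 36 and 37 TPTM in stalk, and 14 and 17 TPTM in fruit. The order within these members is set by the rule, and the genes between Csa5G190500 and the pair, Csa5G190520 and Csa5G190530, did not have it without overlap.

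**Figure D4:**
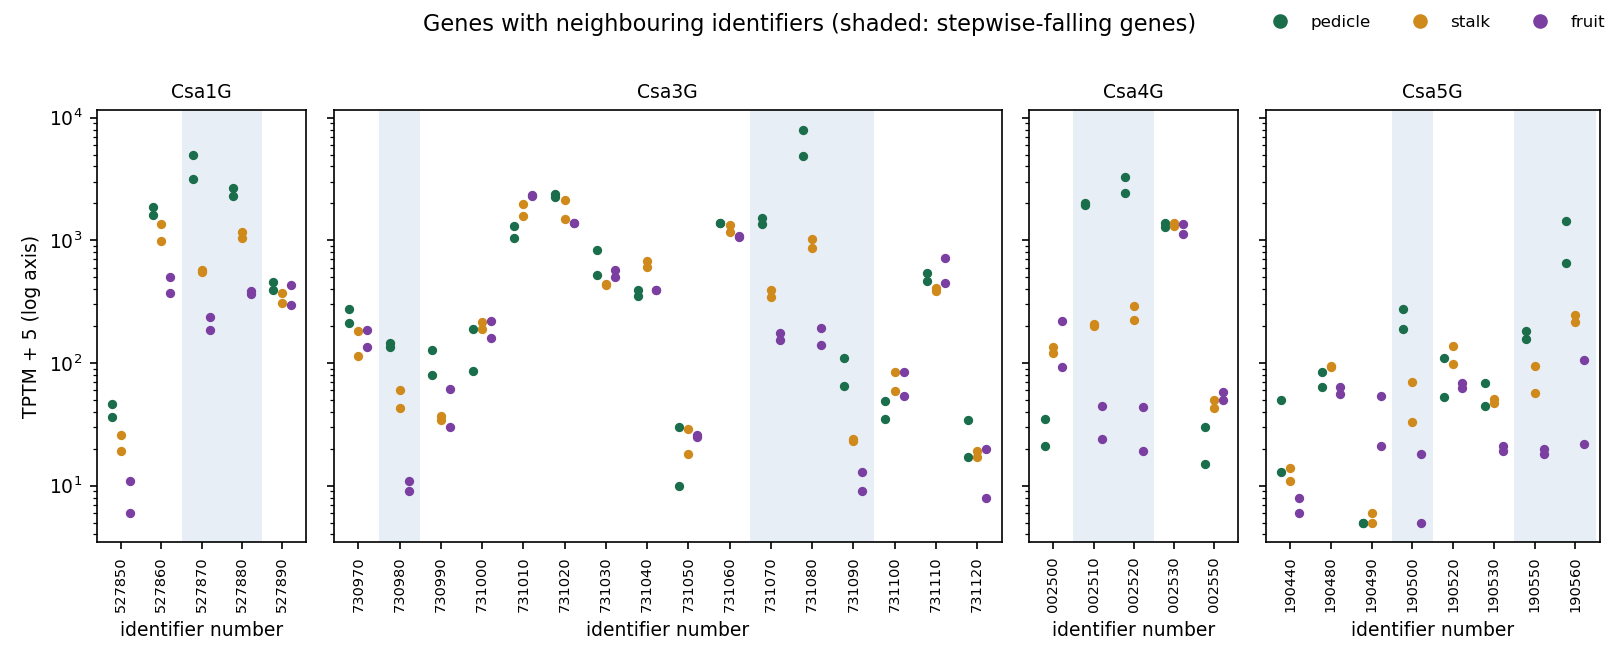
Scores (TPTM + 5, log axis) of genes with consecutive identifiers in 4 stretches of the table, with 1 point per library (green pedicle, orange stalk, purple fruit) and the stepwise-falling genes shaded. In the Csa4G stretch both shaded genes lie between 1922 and 3262 TPTM in pedicle and between 14 and 40 TPTM in fruit, while Csa4G002530 stays between 1119 and 1381 TPTM.

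Members were found among all chromosome numbers. Identifiers starting with Csa1G held 21 members, 0.933% of their genes in the table, and those starting with Csa5G held 19 (0.923%). Csa4G held 15 (0.79%), Csa6G 20 (0.76%), Csa3G 21 (0.635%), Csa2G 9 (0.458%) and Csa7G 5 (0.324%). A single member was among the 68 identifiers that name no chromosome.

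Since the rule used every library, a fall was also read in other sets of genes, chosen on 1 library per organ. It was read in the libraries that had no part in choosing those sets, which only partly overlap the 111 genes. The 2-fold steps and the pedicle minimum were applied to the replicate 1 library of each organ alone, which chose 145 genes, 75 of them among the 111. In the replicate 2 libraries 101 of these (69.7%) kept the order pedicle over stalk over fruit, beside 15.2% of all genes of the table. Both 2-fold steps were met again by 46 (31.7%), beside 0.827% of all genes. The choice made in replicate 2 took 118 genes, 70 of them members. Of these, 98 (83.1%) kept the order in replicate 1, beside 18.5% of all genes, and 47 (39.8%) met both steps again, beside 1.06%.

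Most genes chosen on 1 library per organ met the order again in the libraries not used to choose them. Fewer met the full 2-fold size of both steps again. This describes those sets, which only partly overlap the group, and is no test of the group, whose choice used every library. The genes of the whole table did not have to reach the pedicle minimum, so they are not a matched comparison. Genes chosen in replicate 1 had median steps of 1.86 and 1.46 in the libraries that chose them, and 1.83 and 0.87 in those that did not. Genes chosen in replicate 2 had medians of 1.58 and 1.54 in the choosing libraries, and 1.34 and 1.35 in the others. Over all genes the medians in the reading libraries were 0 and -0.23 for replicate 2, and -0.15 and 0 for replicate 1. Of the genes chosen in replicate 1, 130 kept the direction between pedicle and stalk and 114 that between stalk and fruit. In the other direction these numbers were 106 and 109 of 118. Pedicle was over stalk in 49.8% of all genes in replicate 2 and in 42.8% in replicate 1, and stalk was over fruit in 36.7% and 49%.

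**Figure D5:**
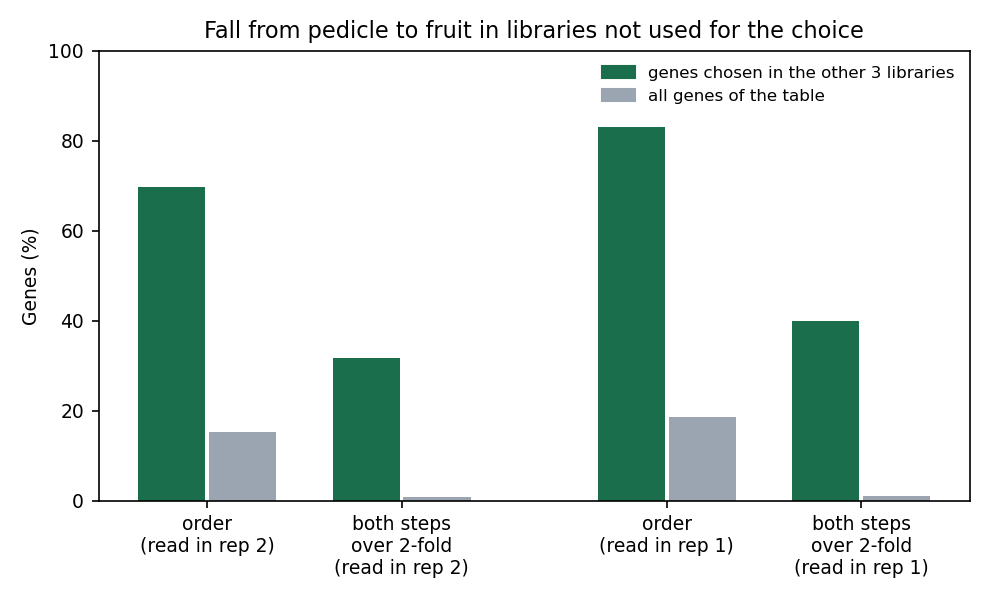
Percentage of genes (axis from 0 to 100) that keep the order pedicle over stalk over fruit, or both steps over 2-fold, in the 3 libraries not used to choose them, for genes chosen in the other 3 libraries (green) and for all genes of the table (grey). The order held for 69.7% and 83.1% of the chosen genes, beside 15.2% and 18.5% of all genes.

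In one linear model over all 6 libraries (limma, Benjamini-Hochberg adjusted p under 0.05 over 15381 genes), all 111 genes passed the filter on low scores and were higher in pedicle than in fruit, beside 7.54% of all tested genes. Between pedicle and stalk 73 of them were called higher in pedicle, beside 4.24%, and between stalk and fruit 41 were called higher in stalk, beside 1.72%. Both steps were called in 28 of them, beside 0.195% of all tested genes. The choice of the genes used these same contrasts, so the counts describe how many members the model could call and support nothing further. They also depended on single libraries. Without stalk replicate 1 the model called 33 members between pedicle and stalk and 2 between stalk and fruit, and without stalk replicate 2 it called 30 and 2. Between stalk and fruit it called 20 without fruit replicate 1, 15 without fruit replicate 2, and 60 to 62 without either pedicle library; without the intensity trend it called 15. Such fits take the single remaining library to be as variable as those of the other organs.

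Only 2 genes outside the group were called in both steps, and both lay just under the limit at the first step. Csa3G020080 had 19759 and 22658 TPTM in pedicle, 10396 and 11634 TPTM in stalk, and 1933 and 3280 TPTM in fruit, with step ratios of 1.93 and 4.22. Csa2G345960 had 7844 and 7288 TPTM in pedicle, 4239 and 3570 TPTM in stalk, and 1510 and 2050 TPTM in fruit, with step ratios of 1.94 and 2.19. Both were picked for being called in both steps in the same 6 libraries, so sharing the order of the members is part of that choice.

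The limits of the rule cut through a continuous range of genes. Just inside the limit on the first step were Csa7G378520 and Csa1G229500 (ratios 2.01 and 2.02), and just outside it Csa4G326550 and Csa2G345960 (1.95 and 1.94). At the second step Csa3G150170 and Csa4G625030 lay just inside (both 2.00 after rounding), while Csa6G089770 and Csa7G398100 were at exactly 2 and stayed out. At the pedicle minimum Csa1G132740 and Csa1G044870 were inside, with means of 54.5 and 57.5 TPTM, and Csa3G914060 and Csa4G026890 outside, with 47.5 and 45 TPTM. A further 8 genes met every limit but had overlapping libraries. Among them Csa5G487700 had 4372 and 3496 TPTM in pedicle, 151 and 63 TPTM in stalk, and 72 and 28 TPTM in fruit, so that its stalk and fruit libraries overlapped.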

How the data were processed

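Phloem RNA of 6 libraries (pedicle, stalk and fruit, 2 each) was amplified in 2 rounds, poly(A)-selected and sequenced on Illumina libraries, per the labels' protocols. The submitters' processing notes name TopHat and HTSeq, with build, annotation and versions not given in the sources used here. Scores in TPTM, as whole numbers, were deposited by the authors in 1 table. Its columns sum to between 9991842 and 9995581, so the scores are normalised and rounded values. Every whole number from 0 to 200 occurs in every library, so reads could not be recovered, depth in reads is unknown, and no count model or counting interval was used.

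The rule was applied to the deposited scores with pandas 2.3.3. limma 3.58.1 in R 4.3.3 was fitted to log2(TPTM + 5) of the 15381 genes that reached 10 TPTM in 2 or more libraries. The fit had one term per organ and an intensity trend (3 residual and 7.76 prior degrees of freedom). It was also run on simulated data whose spread was drawn without regard to level, so that run does not test the intensity trend. Folds understate the change of low genes. Scaling factors by the trimmed mean of M values (TMM) were computed without weights. The members, lists and tests were chosen with earlier results of these data known. Named genes are the 2 members with the highest pedicle mean, the largest pedicle to fruit ratio, the largest and smallest first step relative to the second, the most even steps and the largest replicate spread, those with neighbouring identifiers, and those next to the limits; others are said to be picked afterwards where they first appear, or were named because they adjoin these or were counted by the fit. Replicate numbers did not pair the libraries.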

Additional observations from a re-analysis of the deposited data

How the results depend on the processing

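The group numbered 111 as reported and 94 to 139 with pseudocount 1, a pedicle minimum of 20 or 100, no condition on overlap, TMM factors or quantile normalisation. It numbered 63 with pseudocount 20, 282 with steps over 1.5 times and 24 with steps over 3 times, settings that loosen or tighten the rule by construction. With 1 library left out it numbered 97 to 140, of which 85 to 100 were among the 111. Of 441 recomputed log2 differences of the 21 named members, 25 moved by at least 1 SD between replicates, all with another pseudocount or TMM factors. Omitting 1 of 2 libraries shifts a mean by less than that SD, so those recomputations could not reach the limit and show no stability. For example, the stalk-fruit difference of Csa5G197120 in limma was 1.65 as reported, where its step from organ means was 1.295. The limma difference became 0.594 or 2.71 depending on which fruit library was kept. The direction of the differences is fixed by the rule. Without the 10 most abundant genes of each library, the group's share was 1.62% in pedicle, where 1 member is among those 10, and 0.640% in stalk.

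The median pedicle-stalk step of 1.67 was 1.78 with pseudocount 1, 1.52 with pseudocount 20, 1.75 with quantile normalisation and 1.67 to 1.82 with 1 library left out. The stalk-fruit step of 1.55 was 1.84, 1.17 and 1.68 in the same settings and 1.40 to 1.63 with 1 library left out. The pedicle-fruit step of 3.50 was 3.81, 2.88 and 3.69, with TMM factors 3.67, and 3.47 to 3.67 with 1 library left out. Over all genes the median log2 difference was -0.03 with TMM factors and -0.21 as deposited between pedicle and fruit, and -0.0021 and -0.12 between stalk and fruit. The order held in 82.9% of the 70 genes chosen in replicate 1 with pseudocount 20 and in 75.8% of 178 with TMM factors, against 69.7% of 145. For genes chosen in replicate 2 it held in 84.7% and 83.75%, against 83.1%. Over all genes of the table the order held with TMM factors in 21.0% in replicate 2 and 22.4% in replicate 1, against 15.2% and 18.5%.

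Genes called over the whole table numbered 2018 between pedicle and stalk (482 to 2610 with 1 library left out), 453 between stalk and fruit (27 to 977, and 133 without the intensity trend) and 3474 between pedicle and fruit (1793 to 3685). Between pedicle and fruit 1159 were higher in pedicle and 2315 lower (1543 and 1725 with TMM factors), and between stalk and fruit 264 were higher in stalk and 189 lower (328 and 136). In fits with a replicate block the totals were 1778, 337 and 3105; differences between replicates correlated across genes at -0.117, 0.010 and -0.049 between pedicle and stalk, stalk and fruit, and pedicle and fruit, so the numbers are not taken as pairs. The causes of these differences were not tested. Rounded scores limit what can be read below about 10 TPTM, where 37 of the genes lie in fruit.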

Other observations

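The same limits on steps, overlap and level were applied to the other orders of the organs. Stalk was the middle organ in most genes that passed: 111 fell from pedicle over stalk to fruit, and 157 took the reverse course, with fruit highest and pedicle lowest. Stalk was highest in 51 genes with fruit in the middle and in 6 with pedicle in the middle. Pedicle was highest and stalk lowest in 14 genes, and fruit was highest and stalk lowest in 3. Which stepwise course held more genes depended on scaling, an alternative chosen after seeing the data: with TMM factors 139 genes fell and 124 rose, and with quantile normalisation 139 fell and 108 rose. No test was run on these counts.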
